A study of Mus musculus with 10 samples.

Results

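The collagen crosslinking enzymes described here are 9 genes: the lysyl oxidases Lox, Loxl1, Loxl2, Loxl3 and Loxl4, the lysyl hydroxylases Plod1, Plod2 and Plod3, and the transglutaminase Tgm2. They were picked out by gene symbol, and each had 1 row in the table of estimated counts per gene. All 9 were among the 15767 features that passed a filter on low values, a CPM (estimated counts scaled to a common library total) above a low floor in at least 3 tumors. RNA was sequenced from WEHI-164 fibrosarcomas, a mouse connective tissue tumor line injected under the skin of wild-type female BALB/c mice, and each library came from the tumor piece of 1 mouse. The pieces were untreated: they were taken when most of the tumor was resected, and a hydrogel that releases poly(I:C), a synthetic double-stranded RNA, was placed on the residual tumor afterwards. The 5 responders (RS), whose residual tumors regressed completely, and the 5 non-responders (NR), whose tumors grew without delay, therefore shared every treatment, and the comparison asks how the tumors differed before they met the drug. The labels give no age, and all tumors came from 1 cell line, so the spread between tumors is the spread within that model.

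Fibrillar collagen is made strong outside the cell by covalent bonds between neighboring molecules. Lysyl hydroxylases first hydroxylate lysines of the procollagen chain in the endoplasmic reticulum, and after secretion the copper-dependent lysyl oxidases turn lysines and hydroxylysines into aldehydes that react with each other to form crosslinks. Transglutaminases use calcium in place of copper and join a glutamine to a lysine directly. In fibrosarcomas and other solid tumors these enzymes are known as determinants of the stiffness of the matrix.

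On GRCm38 Loxl1 and Plod2 share chromosome 9, and no other 2 of the genes lie on the same chromosome. Loxl1 spans chr9:58287738-58313186, Loxl2 chr14:69609068-69695834, Loxl3 chr6:83034173-83052562 and Loxl4 chr19:42593982-42612813. Plod1 spans chr4:147909753-147936767, Plod2 chr9:92542223-92608428, Plod3 chr5:136987019-136996648 and Tgm2 chr2:158116402-158146436. The coding bases of the catalytic centers are given for 8 of the genes from GENCODE vM21 transcripts, because they are what sets the 3 enzyme families apart, and each is read from 5′ to 3′ on the strand of the gene. In the lysyl oxidases the capitals mark the codons of the 3 histidines that hold the copper, and each stretch of 33 bases crosses an intron, so the interval given is that of both exons' parts with the intron between. Loxl1 was read from chr9:58293720-58294381 (minus strand, exons 3 and 4), Loxl2 from chr14:69682316-69689037 (plus strand, exons 10 and 11), Loxl3 from chr6:83049995-83050125 (plus strand, exons 10 and 11) and Loxl4 from chr19:42598807-42599899 (minus strand, exons 11 and 12).
Loxl1: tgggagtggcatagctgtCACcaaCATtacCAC
Loxl2: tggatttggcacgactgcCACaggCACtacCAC
Loxl3: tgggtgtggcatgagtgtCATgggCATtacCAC
Loxl4: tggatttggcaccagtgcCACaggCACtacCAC
Loxl2 and Loxl4 had the same base at 31 of the 33 positions, and the other pairs at 21 to 25.

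In the lysyl hydroxylases the capitals mark the codons of a histidine and an aspartate that bind the iron, all within the exon before the last. Plod1 was read from chr4:147913265-147913282 (minus strand), Plod2 from chr9:92606827-92606844 (plus strand) and Plod3 from chr5:136994996-136995013 (plus strand).
Plod1: CACcatGACgcctctacc
Plod2: CACcacGATgcctcaacc
Plod3: CACcatGACtcgtccacc
Plod1 shared 15 of these 18 bases with either of the other genes, and Plod2 and Plod3 shared 13. For Tgm2 the capitals mark the codon of the active-site cysteine, in exon 6 at chr2:158131347-158131370 (minus strand).
Tgm2: tacgggcagTGCtgggtgtttgca

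Libraries held 16002778 to 31160578 estimated counts in responders and 19863697 to 28275958 in non-responders, and a member had 522 estimated counts (Loxl4) or more in every tumor. How far counting error added to the spread between tumors was not tested. Responder 5 stood apart from the other responders in the level of crosslinking substrates (5203 CPM against 4516 to 4599 CPM in the other 4), and its tumor number lies between those of non-responders 3 and 6, below the numbers of the other responders. The labels name no batch. The other responders have numbers above those of every non-responder, so response is aligned with the numbering in large part, though not wholly. An effect of the numbering was not tested. The labels call the tissue a fibrosarcoma, and of 8 mesenchymal markers all passed the filter, led by Vim at 4764 CPM, whereas Epcam, an epithelial surface marker, did not pass. Krt8, a keratin of simple epithelia, was at 179.7 CPM all the same. These are whole pieces of tumor, so a lower value of a gene in a group can come from fewer cells of a type or from less RNA per cell, which cannot be told apart.

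Every member had counts in every tumor, and the levels per length spread widely. Set per kilobase of exon, Lox, the founding member of the lysyl oxidases, was the most abundant at 115 ± 12.7 CPM per kb (SD, n = 10). Tgm2 followed at 76.1 ± 11.4 CPM per kb and Plod3, which also glucosylates hydroxylysine, at 53.2 ± 1.90 CPM per kb. Lox was above Tgm2, Tgm2 above Plod3 and Plod3 above Loxl2 in 10 of 10 tumors each. Loxl2, which oxidizes lysines of basement membrane collagen as well, was at 37.7 ± 3.38 CPM per kb, above the next gene in every tumor. Loxl1, the family member tied to elastin, was at 29.9 ± 3.99 CPM per kb, Plod2, which hydroxylates the ends of the collagen chain, at 28.4 ± 3.52, and Plod1, which acts on the helix, at 26.2 ± 1.70. These 3 genes did not hold a fixed order: Loxl1 was above Plod2 in 7 of 10 tumors and Plod2 above Plod1 in 7 of 10. Loxl3 was at 18.6 ± 1.21 CPM per kb and Loxl4 at 8.20 ± 0.617, the lowest in every tumor. The order of the middle genes depended on the length used, since with the longest transcript in place of merged exons Plod1 (43.2 CPM per kb) and Plod2 (41.8) came before Loxl2 (38.3) and Loxl1 (29.9).

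**Figure D1:**
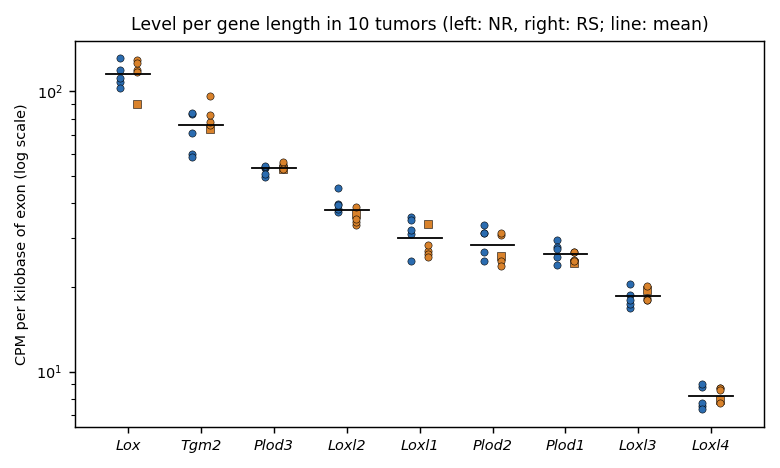
Level of each crosslinking enzyme per kilobase of merged exons (log scale) in 10 tumors, with 1 point per tumor (blue: NR, orange: RS, square: responder 5) and a line at the mean of the 10. Lox, at 115 CPM per kb, and Loxl4, at 8.20, form the ends, and the points of both groups lie over each other for most genes.

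The coefficient of variation of their CPM over the 10 tumors ran from 3.58% for Plod3 to 15.0% for Tgm2. The median of the 8332 features with a mean CPM of at least 20 was 6.55%, and 3 of the 9 members were below it. Summed over the 9 genes, the level was 1900.4 ± 108 CPM in responders (SD, n = 5) and 1889 ± 67.6 in non-responders. Single tumors ran from 1742 CPM in responder 5 to 2016 CPM in responder 11, so both ends of the range were responders.

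None of the 9 genes differed between responders and non-responders at an adjusted p under 0.05 by edgeR's quasi-likelihood test, where 0% of all features did. Limma-voom called 0 members as well, and DESeq2 called 0 of the 6 to which it gave an adjusted p, although it called 4 features elsewhere in the table, all lower in responders. At an unadjusted p under 0.05 edgeR gave 1 member, Loxl2, that is 1 of 9 against 8.21% of all features, a share near the background. In CPM the groups were without overlap for 0 of 9 members, against 0.926% of features. Of the members 5 had the higher mean in responders and 4 the lower, with a median log2 fold change of 0.02 beside 0.00 over all features tested (-0.0036 before rounding). The 95% intervals bound what these tumors leave possible: over the 9 genes they reached from a fold change of 0.771, for Loxl1, to 1.35, for Tgm2, and 8 of 9 held a log2 fold change of 0.

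Loxl2 was the member with the smallest p. It had 201, 215, 205, 244 and 212 CPM in non-responders 1, 2, 3, 6 and 7, and 198, 181, 185, 189 and 209 CPM in responders 5, 9, 10, 11 and 12. The groups overlapped through responder 12, while the other 4 responders were below the lowest non-responder. The mean was 192 ± 11.5 CPM over the responders against 215 ± 17.0 over the non-responders (SD, n = 5 each), which gave a log2 fold change of -0.16 (edgeR; standard error 0.06, 95% interval -0.29 to -0.03, unadjusted p = 0.0167, adjusted p = 0.580). By p it ranked 447 among the 15767 features. Without non-responder 6, the tumor with the highest Loxl2, the log2 fold change was -0.11 (edgeR; unadjusted p = 0.0503, adjusted p = 0.741), and without responder 5 it was -0.17 (adjusted p = 0.267). Only 53.6% of the 31-base words of the Loxl2 transcripts occur in no other gene, since Gm21451, an unprocessed pseudogene, holds a copy of much of it. The estimate gave Gm21451 between 0 and 27.0 counts per tumor beside 2886 to 6008 for Loxl2, and the log2 fold change was -0.16 (edgeR; adjusted p = 0.580) when both were summed.

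Lox had 627, 516, 491, 535 and 569 CPM in non-responders 1, 2, 3, 6 and 7, and 430.0, 569, 559, 618 and 602 CPM in responders 5, 9, 10, 11 and 12. The lowest value of all was responder 5 and the highest non-responder 1. Responders 9, 11 and 12 were above the other 4 non-responders, and responder 10 above 3 of those 4. The log2 fold change was 0.02 (edgeR; standard error 0.09, 95% interval -0.18 to 0.22, adjusted p = 0.973), and without responder 5 it was 0.10 (adjusted p = 0.564). Its direction was not fixed: the log2 fold change was below 0 in 4 of 22 alternative settings.

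Loxl1 had 102, 117, 114, 105 and 81.6 CPM in the non-responders and 110.5, 88.5, 93.3, 86.7 and 84.6 CPM in the responders, in the same order of tumors. Each group held 1 tumor at the level of the other, non-responder 7 and responder 5. The log2 fold change of -0.17 was not called (edgeR; standard error 0.10, 95% interval -0.38 to 0.04, adjusted p = 0.674). Without responder 5 it was -0.24 (edgeR; unadjusted p = 0.0197, adjusted p = 0.267) and without non-responder 7 it was -0.24 (unadjusted p = 0.00859, adjusted p = 0.830), while without non-responder 2 it was -0.12.

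Loxl3 and Loxl4, which like Loxl2 carry scavenger receptor domains ahead of the oxidase, had overlapping values in both groups. Loxl3 ranged from 77.5 to 94.8 CPM in non-responders and from 82.7 to 93.0 CPM in responders, with a log2 fold change of 0.04 (edgeR; 95% interval -0.09 to 0.17, adjusted p = 0.883). Loxl4 ranged from 30.9 to 38.0 CPM in non-responders and from 32.6 to 36.7 CPM in responders, with a log2 fold change of 0.04 (edgeR; 95% interval -0.10 to 0.19, adjusted p = 0.893). The 5 lysyl oxidases together held 962 ± 64.9 CPM in responders (SD, n = 5) and 985 ± 49.6 in non-responders.

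**Figure D2:**
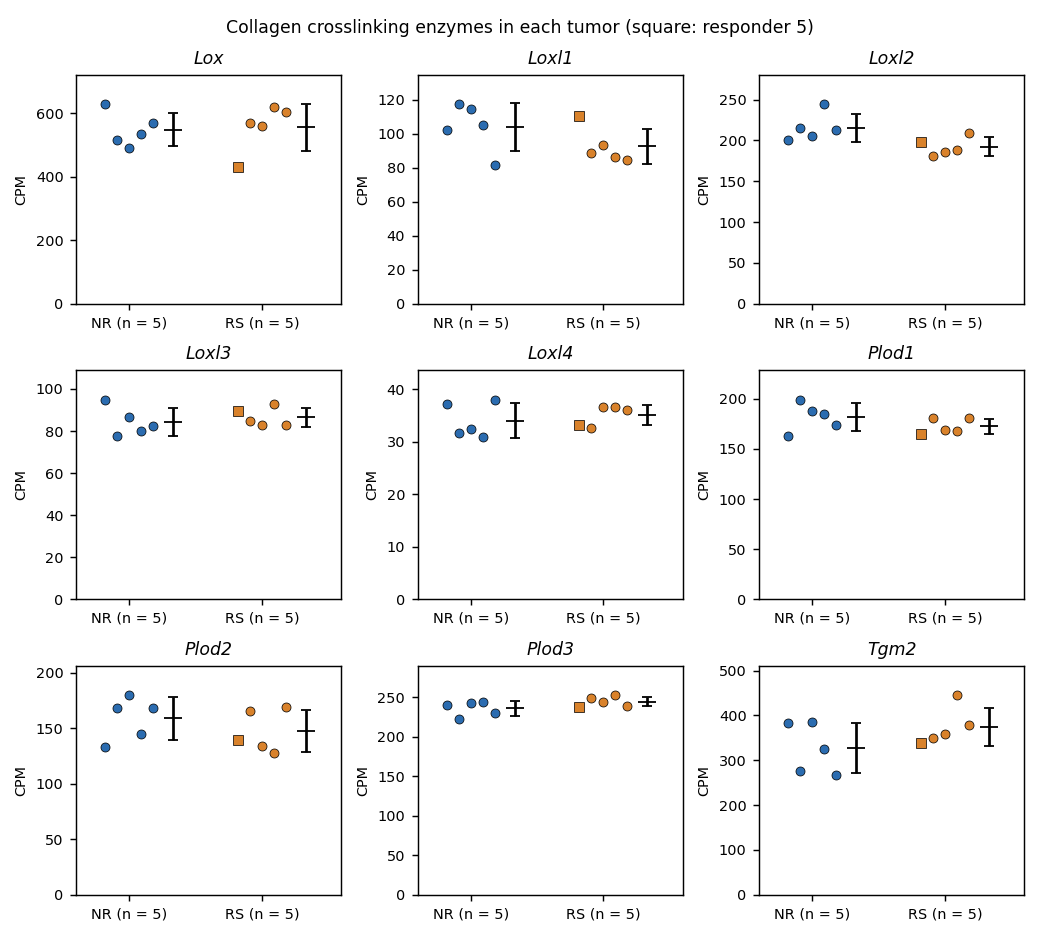
CPM of the 9 enzymes in each tumor, from 0, with 5 non-responders (blue) and 5 responders (orange, responder 5 as a square). The bar beside each group is the mean ± SD (n = 5). The groups overlap in every panel, and for Loxl2 4 of 5 responders lie below the lowest non-responder at 201 CPM.

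Among the lysyl hydroxylases Plod3 was the steadiest gene of the set. It had 240.2, 223, 243, 244 and 229.9 CPM in non-responders 1, 2, 3, 6 and 7 and 238, 249, 244, 252 and 239 CPM in responders 5, 9, 10, 11 and 12, all within a 1.13-fold range. The highest pair were responders 9 and 11 and the lowest pair non-responders 2 and 7. The log2 fold change was 0.05 (edgeR; standard error 0.04, 95% interval -0.04 to 0.14, adjusted p = 0.756).

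Plod2 ranged from 134 to 179.5 CPM in non-responders (median 168) and from 128 to 169 CPM in responders (median 139). Non-responders 1 and 6, at 134 and 144 CPM, and responders 5, 10 and 11, at 139, 134 and 128 CPM, formed the low end, and the other 5 tumors lay at 166 CPM or above, so low and high tumors occurred in both groups. The log2 fold change was -0.11 (edgeR; 95% interval -0.32 to 0.10, adjusted p = 0.782). Plod1 ranged from 163 to 199 CPM in non-responders and from 165 to 181 CPM in responders, with a log2 fold change of -0.07 (edgeR; 95% interval -0.19 to 0.05, adjusted p = 0.745). Without responder 5 the log2 fold changes of Plod1, Plod2, Plod3, Loxl3 and Loxl4 were -0.06, -0.09, 0.06, 0.03 and 0.06, with the direction of the whole set of tumors. Other single tumors moved these small values more: Plod1 was -0.03 without non-responder 2 and -0.11 without non-responder 1, and Plod2 was -0.06 without responder 11 or non-responder 3 and -0.17 without non-responder 1. Loxl3 was 0.01 without non-responder 2, 0.02 without responder 11 and 0.09 without non-responder 1, and Loxl4 was 0.02 without non-responder 6 or 2 and 0.09 without non-responder 7. The 3 lysyl hydroxylases summed to 564 ± 25.7 CPM in responders (SD, n = 5) and 576 ± 27.3 in non-responders.

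Tgm2 varied most. It had 382, 276, 385, 326 and 268 CPM in non-responders 1, 2, 3, 6 and 7 and 339, 349, 359, 445 and 378 CPM in responders 5, 9, 10, 11 and 12. Responder 11 was above every non-responder, 3 non-responders were below every responder, and non-responders 1 and 3 were within the range of the responders. The means of 374 ± 42.0 and 328 ± 55.8 CPM (SD, n = 5 each) gave a log2 fold change of 0.19 (edgeR; standard error 0.11, 95% interval -0.04 to 0.43, adjusted p = 0.668). Without responder 5 it was 0.23 (edgeR; unadjusted p = 0.0712, adjusted p = 0.415). Leaving out 1 tumor gave from 0.13, without responder 11 or non-responder 7, to 0.26 without non-responder 3 (edgeR; unadjusted p = 0.0339, adjusted p = 0.509). Of the other transglutaminases Tgm5, Tgm6, Tgm7 and F13b did not pass the filter, and the other 4 were all higher on average in responders with none called and a median log2 fold change of 0.56. Without responder 5, 2 of these 4 were higher at an unadjusted p under 0.05 (edgeR), with a median of 0.60, against 13.6% of all features in either direction. Those values rest on low levels, with Tgm1 at 2.40 ± 0.903 CPM in responders and 1.67 ± 0.461 in non-responders, Tgm3 at 0.640 and 0.393 CPM and Tgm4 at 0.514 and 0.332 CPM. F13a1, the plasma transglutaminase chain that macrophages also make, was at 59.8 ± 10.6 and 54.97 ± 16.6 CPM.

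The collagens and elastin that lysyl oxidases act on had their means to one side, unlike the enzymes. All 7 that passed the filter had the lower mean in responders, with 0 called, 5 with an unadjusted p under 0.05 (edgeR) and a median log2 fold change of -0.22, and Col11a1 did not pass. Over all features 8.21% were at that p, in either direction. Col5a1, a chain of the collagen that limits fibril width, had 531 ± 51.0 CPM in responders and 635 ± 37.5 in non-responders (edgeR; log2 fold change -0.26, adjusted p = 0.580). Col1a1, the main chain of type I collagen, had 921 ± 88.5 and 1115 ± 133 CPM (edgeR; log2 fold change -0.28, adjusted p = 0.580), and Col3a1 had 2081 ± 185 and 2395 ± 211 CPM (log2 fold change -0.20, adjusted p = 0.580). Summed, the 7 substrates were at 4516, 4599, 4564 and 4533 CPM in responders 9, 10, 11 and 12 but at 5203 CPM in responder 5, which was within the non-responders' range of 5113 to 6211 CPM. Without responder 5 the median log2 fold change of the substrates was -0.26 with 4 of 7 at an unadjusted p under 0.05 (edgeR), and that of the 9 enzymes was 0.03 with 2 of 9, both lower, while the share of all features at that p was 13.6% in that fit. Responder 5 had the highest substrate sum of the responders, so leaving it out was bound to lower their mean sum. The fit is therefore no separate support for the lower substrates.

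**Figure D3:**
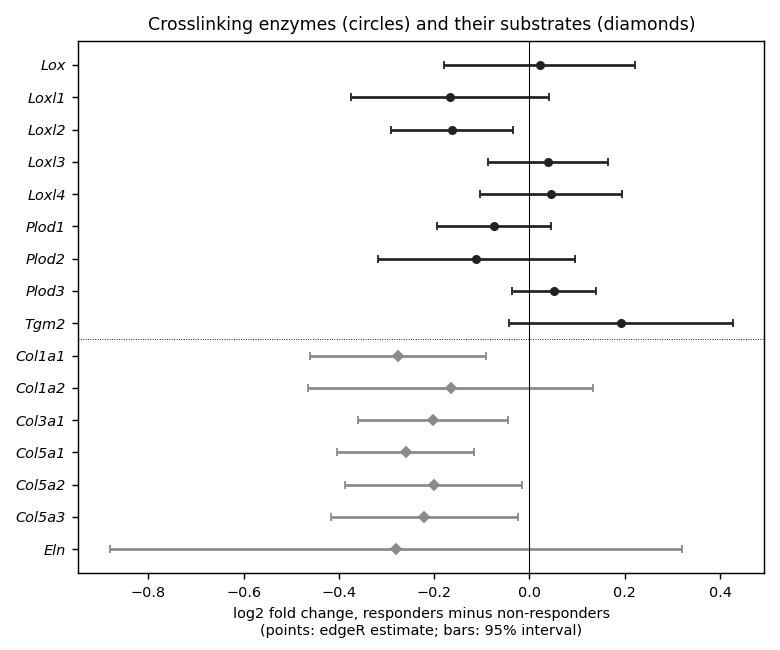
Log2 fold change of responders minus non-responders for the 9 enzymes (circles) and the 7 substrates past the filter (diamonds), with edgeR's estimate and its 95% interval. The enzymes lie on both sides of 0, between -0.17 and 0.19, and all substrates lie below 0.

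Set against their substrates, the summed enzymes had the higher mean in responders. This goes with the lower substrate sum there, 4683 ± 293 CPM against 5457 ± 457 in non-responders. The lysyl oxidase sum itself had a slightly lower mean in responders (962 against 985 CPM), as did the lysyl hydroxylase sum (564 against 576 CPM). The lysyl oxidases held 20.7 ± 2.41 CPM per 100 CPM of substrate in responders and 18.1 ± 1.64 in non-responders, and the lysyl hydroxylases 12.1 ± 1.10 and 10.6 ± 1.01 (SD, n = 5 each). Responders 9 to 12 had 20.8 to 22.4 CPM of lysyl oxidase per 100 CPM of substrate, all above the highest non-responder at 20.3, while responder 5 had 16.5. For the lysyl hydroxylases the values overlapped further: responders 9 to 12 had 11.87 to 13.2, with responder 10 below non-responder 3 at 11.94, and responder 5 had 10.4. The ratios were formed after the values had been seen and are given without a test. Loxl2 per 100 CPM of substrate was 4.12 ± 0.309 in responders and 3.95 ± 0.115 in non-responders.

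Loxl2 also varied with the substrates from tumor to tumor. Across the 10 tumors its log2(CPM + 1) had a Pearson r of 0.874 with the mean log2(CPM + 1) of the 7 substrates (permutation p = 0.00181, adjusted p = 0.0489) and a Spearman rho of 0.806 (permutation p = 0.00723, adjusted p = 0.111). The adjustment runs over 54 relations, those of the 9 enzymes with 6 gene lists (substrates, procollagen folding, HIF targets, macrophages, T and NK cells, endothelial cells), which were picked after values had been seen. Without non-responders 6 and 7, the tumors farthest from the median of that mean, r was 0.631 (permutation p = 0.0953), so with 8 tumors the relation was no longer under 0.05. With 1 tumor left out in turn r ran from 0.698 to 0.932. The mean of logs gives elastin (Eln), at 12.5 and 8.18 CPM in these tumors and 3.92 to 6.79 CPM in the others, the same weight as each collagen. Without Eln in the mean r was 0.824 (permutation p = 0.00393), and 0.470 without non-responder 6 and responder 9, then the farthest (permutation p = 0.240). With the log2 of the summed CPM r was 0.842 (permutation p = 0.00251), and 0.586 without the same pair (permutation p = 0.129). The adjustment over 54 relations was not repeated with either of these substrate levels. Whether an adjusted p would stay under 0.05 with them was therefore not tested. On deviations from the group means r was 0.763 (permutation p = 0.0108). With endothelial markers the r of Loxl2 was 0.660 (rho 0.758, permutation p of r = 0.0421, adjusted p = 0.142). Without non-responder 2 and responder 11, the farthest in that list, it was 0.776 (permutation p = 0.0213). As deviations from the group means it was 0.426 (permutation p = 0.221).

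Of the 54 relations 18 had a permutation p under 0.05. An adjusted p under 0.05 was held by 2, that of Loxl2 with the substrates and that of Tgm2 with the macrophage markers. Both carry the same adjusted p, because Tgm2 takes on that of Loxl2, the next relation in order of p. For Tgm2 r with the mean of 10 markers was 0.868 (permutation p = 0.00153, adjusted p = 0.0489) and rho was 0.842 (permutation p = 0.00378, adjusted p = 0.111). Without non-responder 1 and responder 11 r was 0.799 (permutation p = 0.0201), and on deviations from the group means it was 0.840 (permutation p = 0.00259). Tgm2 also had an r of 0.739 with T and NK cell markers (rho 0.612, permutation p of r = 0.0134, adjusted p = 0.0874), which was 0.7103 without the 2 farthest tumors. Its r with endothelial markers was -0.746 (rho -0.60, permutation p of r = 0.0146, adjusted p = 0.0874), and -0.328 without the 2 farthest. Plod3 had an r of 0.8003 with macrophage markers (rho 0.7697, permutation p of r = 0.00537, adjusted p = 0.0725), which was 0.896 without non-responder 1 and responder 11. With T and NK cell markers its r was 0.7802 (rho 0.794, permutation p of r = 0.00457, adjusted p = 0.0725), and 0.784 without the 2 farthest. Plod3 with endothelial markers had -0.740 (permutation p = 0.0169, adjusted p = 0.0913), and -0.193 without the 2 farthest. The lowest r of the 54 was that of Loxl3 with procollagen folding, at -0.776 (permutation p = 0.00931), and -0.737 without the 2 farthest. Loxl3 with macrophage markers had 0.753 (0.393 without the 2 farthest), and Lox with T and NK cell markers 0.731 (0.564). These last 3 relations had an adjusted p of 0.0874 each. Plod2 and Plod1 had a negative r with the macrophage markers, at -0.699 (permutation p = 0.0261, adjusted p = 0.117) and -0.633 (permutation p = 0.0496, adjusted p = 0.149). Without the 2 farthest tumors these were -0.408 and -0.440. All 10 macrophage markers passed the filter, and C1qa, a complement chain, had the highest mean at 349.5 CPM. Summed, they had 1814, 1342, 1558, 1457 and 1398 CPM in non-responders 1, 2, 3, 6 and 7 and 1439.8, 1709, 1740.2, 1977 and 1536 CPM in responders 5, 9, 10, 11 and 12. Responder 11 was highest in both the markers and Tgm2, and non-responders 2 and 7 were lowest in both. Tgm2 is known to be expressed by macrophages and by connective tissue cells alike. The part of macrophage content in the group difference of Tgm2, which was not called, was not tested. With the marker score as a covariate the log2 fold change of Tgm2 was 0.06 (edgeR; adjusted p = 0.946).

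**Figure D4:**
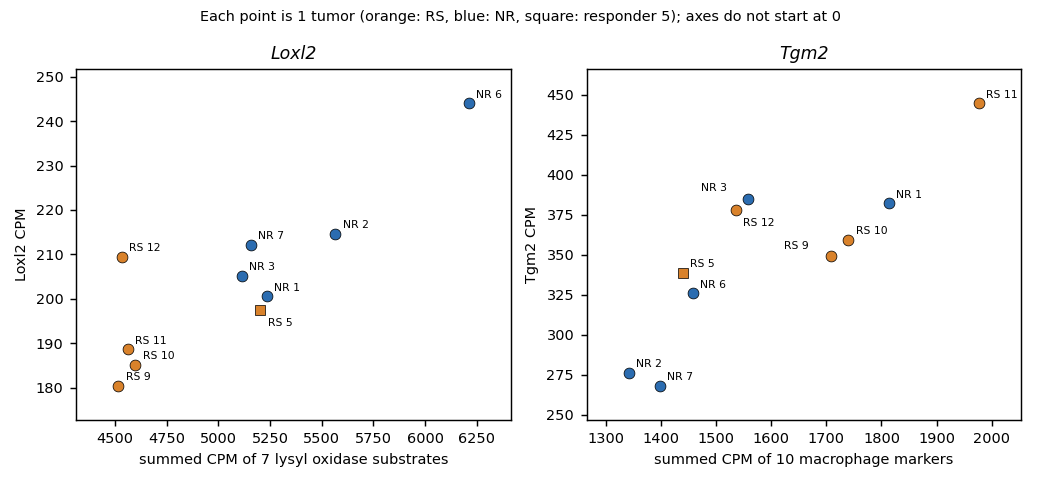
Left, Loxl2 CPM against the summed CPM of 7 lysyl oxidase substrates, and right, Tgm2 CPM against the summed CPM of 10 macrophage markers. Each point is 1 tumor (blue: NR, orange: RS, square: responder 5) and the axes do not start at 0. Non-responder 6 is highest in Loxl2 (244 CPM) and in substrates (6211 CPM), and responder 11 is highest in Tgm2 (445 CPM) and in macrophage markers (1977 CPM).

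The 9 enzymes did not all vary in one direction. Of their 36 pairs across the 10 tumors 16 had a positive r and 20 a negative one, 7 had a permutation p under 0.05 and 0 had an adjusted p under 0.05. The highest r was that of Plod3 with Tgm2, at 0.827 (permutation p = 0.00433, adjusted p = 0.156), with a rho of 0.564, and it was 0.471 without non-responders 2 and 7 (permutation p = 0.244). Plod1 and Plod2 had an r of 0.747 (permutation p = 0.0159, adjusted p = 0.1597) and a rho of 0.709, and r was 0.732 without non-responders 1 and 2 (permutation p = 0.0466). The lowest r was that of Loxl3 with Plod1, at -0.773 (permutation p = 0.00938, adjusted p = 0.1597), with a rho of -0.721, and it was -0.652 without non-responder 1 and responder 11 (permutation p = 0.0751). Lox and Loxl1 also varied in opposite directions, with an r of -0.672 (permutation p = 0.0299, adjusted p = 0.1597) and a rho of -0.685, and r was -0.554 without non-responder 3 and responder 5 (permutation p = 0.154). Of the 7 pairs 2 were still under 0.05 without the 2 farthest tumors, Plod1 with Plod2 and Loxl4 with Plod1 (r of -0.7205, permutation p = 0.0345). The tumors left out were those farthest from the median of the first-named gene of a pair, so this count can depend on the order of the genes.

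**Figure D5:**
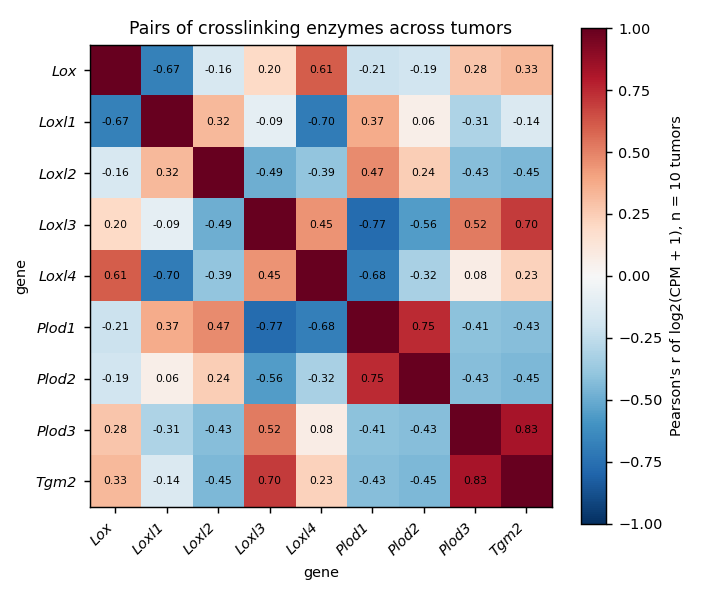
Pearson's r of log2(CPM + 1) over the 10 tumors for each pair of the 9 enzymes, red above 0 and blue below. Plod3 with Tgm2 (0.83) and Plod1 with Plod2 (0.75) are highest, and Loxl3 with Plod1 (-0.77) is lowest.

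Among 10965 named genes with a mean CPM of at least 5, those whose log2(CPM + 1) followed each enzyme most closely over the 10 tumors are given as a description, since the highest of so many values is large by selection. Loxl2 was nearest to Chmp3 (r = 0.950, n = 10) and to Rrbp1 (0.927), a ribosome-binding protein of the endoplasmic reticulum. Loxl1 was nearest to Ttyh3 (0.938) and to Mmp14 (0.927), a membrane-bound collagenase, and Lox to Npnt (0.950), a matrix protein, and Alg8 (0.898). Tgm2 was nearest to Ripk2 (0.959), a kinase of innate immune signaling, and Unc13d (0.948). Plod3 was nearest to Marchf1 (0.9698) and to Fcgr4 (0.964), an Fc receptor of myeloid cells. The nearest for the others were Ank2 (0.908) and Serpinb2 (0.897) for Loxl3, Gstcd (0.969) and Klc1 (0.909) for Loxl4, Apln (0.925) and Tmem205 (0.906) for Plod1, and Fam199x (0.9296) and Zfp260 (0.924) for Plod2.

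The genes that prepare collagen for crosslinking had medians near 0, like the enzymes. The background of their counts over all 10 tumors is the 8.21% of all features at an unadjusted p under 0.05 (edgeR), in either direction. Of 17 genes of prolyl hydroxylation and procollagen folding 7 were higher on average in responders and 10 lower, with 0 called, 2 at an unadjusted p under 0.05 (edgeR), both lower, and a median log2 fold change of -0.01. Those 2 were Fkbp10, a chaperone that assists lysyl hydroxylation by Plod2, at 133 ± 6.18 CPM in responders and 152 ± 14.4 in non-responders (log2 fold change -0.19, edgeR adjusted p = 0.580), and P3h1, a prolyl 3-hydroxylase, at 69.97 ± 2.53 and 75.8 ± 1.87 CPM (log2 fold change -0.12, adjusted p = 0.580). P3h4, which works with Plod1, had a log2 fold change of -0.16 (edgeR adjusted p = 0.6299), and P4hb, the gene of the list with the highest CPM, had 1304 ± 103 and 1312 ± 44.7 CPM. Of 9 genes that activate lysyl oxidases or supply their copper 4 were higher and 5 lower, with 0 called, 1 at an unadjusted p under 0.05 and a median log2 fold change of -0.03. Without responder 5 the median was -0.07 with 3 of 9 lower at that p, while 13.6% of all features were at that p in either direction. The gene under 0.05 with all 10 tumors was Postn, a matrix protein that brings the protease Bmp1 to lysyl oxidase, at 121 ± 7.26 and 154 ± 28.1 CPM (log2 fold change -0.35, edgeR adjusted p = 0.580), and the next by p were Fn1 (-0.26) and Fbln5 (-0.21). Of 7 genes of procollagen trimming 5 passed, with 0 called, 0 at an unadjusted p under 0.05 and a median log2 fold change of 0.00 (0.0013). Bmp1 itself, which also cleaves the Lox precursor, had 230.0 ± 12.8 CPM in responders and 236 ± 7.35 in non-responders, and Pcolce2 and Pcolce had log2 fold changes of 0.38 and 0.04. Without responder 5, 3 of the folding genes were lower and 1 of the trimming genes higher at an unadjusted p under 0.05 (edgeR). The share of all features, in either direction, was 13.6% in that fit.

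Targets of signals that induce these enzymes were not called either. With all 10 tumors 8.21% of all features were at an unadjusted p under 0.05 (edgeR), in either direction. Lox, Loxl2, Loxl4, Plod1 and Plod2 are known targets of hypoxia-inducible factors. Of 16 other HIF targets 12 were higher on average in responders and 4 lower, with 0 called, 0 at an unadjusted p under 0.05 (edgeR) and a median log2 fold change of 0.05. Slc2a1, the glucose transporter, had 249 ± 60.9 CPM in responders and 202 ± 42.6 in non-responders (log2 fold change 0.30, edgeR adjusted p = 0.674), and the next by p were Aldoa (0.12) and Pgk1 (0.09). Without responder 5 the median log2 fold change of the HIF targets was 0.12, with 4 of 16 higher at an unadjusted p under 0.05, against 13.6% of all features in either direction in that fit. Over the 10 tumors Plod1 had an r of 0.658 with the HIF targets (permutation p = 0.0390, adjusted p = 0.141). Plod2 had 0.642 (permutation p = 0.0497, adjusted p = 0.149). Without responders 5 and 9, the farthest, these were 0.630 and 0.618 (permutation p = 0.0960 and 0.100). Lox, Loxl2 and Loxl4 had 0.346, -0.065 and -0.195. Of 9 TGF-beta targets, a pathway that induces lysyl oxidases in fibroblasts, 4 were higher and 5 lower, with 0 called, 0 at an unadjusted p under 0.05 and a median log2 fold change of -0.01. Ccn2, a matrix protein that TGF-beta induces, had 21.5 ± 7.32 CPM in responders and 17.1 ± 2.69 in non-responders (edgeR adjusted p = 0.666), and Smurf1 and Smad7 had log2 fold changes of 0.08 and -0.15.

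Markers of the cell types that the pieces could hold had larger median differences for several lists, and edgeR called none of them over all 10 tumors. The background of the counts over all 10 tumors is the 8.21% of all features at an unadjusted p under 0.05, in either direction. T and NK cell markers were higher on average in responders for 9 of 9, with 4 at an unadjusted p under 0.05 and a median log2 fold change of 0.61. They were led by Gzmb, the cytotoxic granule protease, at 64.3 ± 31.6 and 23.2 ± 7.27 CPM, with Prf1 (log2 fold change 1.32) and Klrb1c (0.89) next. Without responder 5 Gzmb was called (edgeR; log2 fold change 1.71, adjusted p = 0.0313), 8 of 9 were at an unadjusted p under 0.05 and the median was 0.82. That fit called 9 features in all and had 13.6% of all features at an unadjusted p under 0.05 in either direction. The other fits with 1 tumor left out had 5.32% to 9.74% and called 0 features, and the marker lists are not given for them. The share of 13.6% is the background of the other counts without responder 5 in this paragraph. Macrophage markers were higher for 9 of 10, with 0 at an unadjusted p under 0.05 and a median of 0.14 (Csf1r 0.15, Cd68 0.19 and C1qc 0.16). Without responder 5 the median of the macrophage markers was 0.18 with 2 higher at that p. Fibroblast markers were higher for 6 of 8, with 0 and a median of 0.13 (Clec3b 0.74, Dcn 0.33 and Pi16 0.21, with Pdgfra highest in CPM at 55.3). Endothelial markers were lower for 7 of 8, with 3 at an unadjusted p under 0.05, Cdh5 (-0.39), Tie1 (-0.29) and Kdr (-0.19), and a median of -0.20, while Pecam1, at 70.4 CPM the highest, had 0.09. Without responder 5, 3 were lower and 1 higher at that p, with a median of -0.27. Of 7 pericyte and smooth muscle markers 4 were higher and 3 lower, with a median of 0.11 and Des highest at 60.1 CPM. The lower ones were Mcam (-0.22) and Notch3 (-0.34), both at an unadjusted p under 0.05, and Cspg4 (-0.31), and the higher ones were Myh11 (0.28), Rgs5 (0.16), Acta2 (0.14) and Des (0.11). Without responder 5 the median was 0.20 with 3 lower at that p. Mesenchymal markers were lower for 6 of 8, with 1 (Col1a1) at an unadjusted p under 0.05 and a median of -0.11 (Pdgfrb -0.21). Of these markers 3, all lower, are also in the substrate or activation lists (Col1a1, Col1a2 and Fn1). Without responder 5, 3 of the mesenchymal markers were lower and 1 higher at that p, with a median of -0.10. Epithelial markers were split 2 and 2 with 0 (Krt18 -0.17, Krt8 -0.09 and Krt19 0.26). Skeletal muscle markers were lower for 7 of 8, with 2 at an unadjusted p under 0.05, Ckm (-0.75) and Myh4 (-0.86), Tnni2 at -0.38, a median of -0.25 and Acta1 highest at 57.4 CPM. Of 6 adipocyte markers Retn did not pass the filter. The other 5 were all lower, with 1, Lep (-1.79), and a median of -0.40 (Cidec -0.59 and Adipoq -0.40, with Fabp4 highest at 21.5 CPM). Of the epidermal markers 3 of 8 passed with 0 (Sbsn 0.17, Dsp -0.03 and Krt10 0.01).

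With a score of the muscle, epidermis and adipocyte markers as a covariate 3 members had an unadjusted p under 0.05 (edgeR), all lower in responders, where 9.54% of all features did in that fit: Plod2 (log2 fold change -0.24, adjusted p = 0.441), Plod1 (-0.13, adjusted p = 0.464) and Loxl1 (-0.23, adjusted p = 0.517). With the mean of Col1a1, Col1a2 and Col3a1 as a covariate 1 member, Plod2, had an unadjusted p under 0.05 (edgeR; log2 fold change -0.27, unadjusted p = 0.0254, adjusted p = 0.819), against 5.46% of all features in that fit. In that fit the log2 fold change of Loxl2 was -0.06 (edgeR; adjusted p = 0.876), and with the tissue markers it was -0.14 (unadjusted p = 0.0551, adjusted p = 0.534). With the macrophage marker score as a covariate no member had an unadjusted p under 0.05 (edgeR). The share of all features was 4.9% in that fit, so a count of 0 is near the background. The log2 fold changes of Plod2, Plod1 and Loxl2 were then -0.016, -0.032 and -0.13 (edgeR; adjusted p = 0.9897, 0.961 and 0.9197). The values of Plod2 and Plod1 were thus nearer to 0 with that score and farther from it with the tissue markers.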

How the data were processed

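Poly(A) RNA of 10 resected tumors was sequenced as paired ends. The authors estimated transcript abundances with kallisto on GRCm38, per the labels, and deposited estimated counts per gene without normalization. The release of the annotation is not given in the sources used here. Estimated counts split reads among near-identical genes, and the strand of the library is not given, so antisense reads of genes that overlap Loxl3 (Htra2), Plod3 (Znhit1) and Tgm2 (Rprd1b) cannot be told apart. Of 36009 rows 9580 had no name (1.31% of counts) and were kept, rows of 1 name were summed and counts were rounded to whole numbers. No column was left unmapped.

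Features were kept where 3 or more tumors exceeded 0.366 CPM of the raw library total, the filter the methods give for a time course. R 4.3.3 ran the tests: edgeR 4.0.16 (TMM, quasi-likelihood, Benjamini-Hochberg over 15767 features, threshold 0.05), and as alternatives limma 3.58.1 and DESeq2 1.42.0. CPM values given are scaled by TMM. The steps were tested on simulated data. Each standard error is the log2 fold change divided by the root of edgeR's F. The biological coefficient of variation was 10.4%. Each of 10 mice gave 1 library, and tumor numbers are unique, so nothing pairs them. Correlations used log2(CPM + 1) and 100000 resamples (two-sided) in Python 3.11.15. Word uniqueness (31 bases), lengths, coordinates and sequences are from GENCODE vM21 on GRCm38.

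The text names every member, from each list the 3 genes with the smallest p and, for cell types, the most abundant, and for likeness the 2 genes with the highest r. Other genes named (P4hb, F13a1, Eln, Gm21451, Myh11, Rgs5, Acta2, genes that did not pass) were chosen after their values were seen. The members and lists were chosen with earlier results of these data known.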

Additional observations from a re-analysis of the deposited data

Results flagged for a closer look

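In 27 measures, the CPM of each enzyme and the summed CPM of each list, each group of 5 was examined for a tumor far from the other 4, and 2 of 54 groups held one, where chance gives about 1 in 20. The summed CPM of the lysyl oxidase substrates in responder 5 was 5203, while the other 4 responders were at 4516 to 4599. The summed CPM of procollagen trimming genes in non-responder 6 was 1052, while the other 4 non-responders were at 904 to 941. The CPM of the 9 enzymes themselves held no such tumor in either group.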

How the results depend on the processing

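In 22 alternatives (other normalizations, filters, row choices, tests and covariates, and leaving out each tumor) 0 of the 9 enzymes were called, with a lowest adjusted p of 0.267, and 6 kept their direction in all. Plod3 kept its direction but was 0.023 with the macrophage score as a covariate, beside 0.051 without it. Lox turned to -0.059 and Loxl3 to -0.015 with that score, and Loxl4 to -0.00021 with the collagen mean. Lox ran from -0.017 to 0.10 with 1 tumor left out, and was -0.013 without non-responder 3, -0.0093 without responder 12 and -0.017 without responder 11. The cause was not tested. The 1 enzyme at an unadjusted p under 0.05, Loxl2, became 3 others with the tissue score, Plod2 in its place with the collagen mean and 0 with the macrophage score, and 0 (without non-responder 6) to 2 with 1 tumor left out. Features called, 0, were 4 by DESeq2 and 0 to 9 with 1 tumor left out, 9 without responder 5. Features at an unadjusted p under 0.05, 1294, were 861 with the collagen mean, 772 with the macrophage score, and 839 (without responder 11) to 2145 (without responder 5). Substrates lower at an unadjusted p under 0.05, 5, were 1 with the collagen mean, which is made of 3 of the 7 substrates and so takes up their own difference, 3 with the macrophage score, and 3 (without non-responder 6 or responder 12) to 5. Folding genes so lower, 2, were 1 with the collagen mean and 2 to 4, 4 without non-responder 1. Pairs of enzymes with a permutation p under 0.05, 7, were 3 (without non-responder 2 or responder 11) to 9, with 0 after adjustment each time. With the longest transcript the CPM per kb were 97.5 for Tgm2, 73.3 for Plod3, 43.2 for Plod1, 41.8 for Plod2, 20.8 for Loxl3 and 9.24 for Loxl4, since fewer bases divide the counts. Summing Gm21451 with Loxl2, and the substrate levels without Eln or as a sum, were chosen after seeing the data. DESeq2 gave Loxl1, Loxl3 and Loxl4 no adjusted p, because its filter on low means left 1400 features adjusted. No paired analysis was possible because no tumor number occurs in both groups.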
